A study of Mus musculus with 4 samples.

Results

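MHC class I presentation was followed through 10 genes in bone marrow-derived macrophages labelled WT or KO for G3bp1. The genes were chosen by name: B2m, the light chain of class I molecules, the heavy chains H2-K1, H2-D1 and H2-T23, the immunoproteasome subunits Psmb8 and Psmb9, the peptide transporter Tap1 and Tap2, the loading factor Tapbp (tapasin), and Nlrc5, a transactivator of class I genes. They are 10 of the 34745 genes in the count table, and all 10 were among the 12418 genes with enough reads for testing.

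RNA-seq of total RNA was done on 4 libraries, 2 labelled WT and 2 labelled KO. The WT macrophages came from G3bp1 f/f mice, whose G3bp1 gene is floxed and intact. The KO macrophages came from G3bp1mac-/- mice, in which G3bp1 f/f is combined with Lyz2-Cre, so both groups carry the floxed allele. Lyz2-Cre acts in monocytes, macrophages and granulocytes rather than in macrophages alone. The labels name no stimulus. The age and sex of the donor mice, and whether the WT mice carried Cre, are not given in the sources used here. The labels also do not say whether the libraries of a group came from separate mice or cultures, so the p-values measure only the spread between these libraries, which may be technical.

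Counts summed to 17004167 and 16926884 in the pair of WT libraries, and to 16724241 and 19747909 in the KO pair. At these depths, 3 counts corresponded to 0.152 to 0.188 CPM (counts scaled to the effective library size), and this floor covers counting error only. All 9 macrophage markers passed the filter on low counts, with a summed level of 21261 to 26486 CPM per library. Lyz2 alone gave 16869 to 21870 CPM of that sum. Both KO libraries were above both WT libraries for Itgam and below them for Cd68, and the other markers overlapped. For G3bp1 itself the WT libraries held 1691 and 2875 counts, and the KO libraries 1307 and 2296. The 2 groups overlapped, and the log2 fold change was -0.61 with an SE of 0.40 (edgeR quasi-likelihood test, adjusted p = 0.904). The counts cover the whole gene and cannot show the loss of single exons, so the genotype labels could not be checked and the KO libraries are those labelled KO. By other assays, the study reported an efficient loss of G3bp1 mRNA and protein in macrophages of G3bp1mac-/- mice. The first principal component, with 57.4% of the variance, separated the libraries by replicate number, and the second, with 34.3%, by genotype.

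Class I molecules display peptides from the inside of the cell to CD8 T cells. Proteasomes cut proteins into peptides, and in immunoproteasomes the catalytic subunits Psmb8 and Psmb9 stand in for the constitutive Psmb5 and Psmb6. TAP carries the peptides into the endoplasmic reticulum, where tapasin holds the transporter and the empty heavy chain with B2m together until a peptide binds. Macrophages keep the pathway active at rest, and interferon gamma increases the transcription of most of its genes, through IRF1 and through NLRC5, which acts at a compound promoter element bound by RFX, CREB or ATF, and NF-Y factors.

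The promoter sequences show which short motifs the members share. The RefSeq promoter table (GRCm38.p6) held 8 of the 10 genes. Tap2 and Nlrc5 were not among them. Within the 250 bases before the start of each gene, on both strands, 5 short motifs were searched. They were chosen after the members were known. They were GGGATTCCC, a site of the NF-kappaB type found in class I promoters, GAAANNGAA and GAANNGAAA, spaced GAA repeats of the interferon response type that can overlap each other, TGACG, the core of a CREB or ATF site, and ATTGG, the CCAAT box read on the other strand. Motifs on the other strand appear as their complement, so that TTTCACTTC in H2-K1 is a match to GAANNGAAA and CCAAT in H2-M3 a match to ATTGG. The stretches that hold these motifs are shown for the light chain and for the heavy chains with the closest spacing, with the motifs in capitals, read 5′ to 3′ on the strand of the gene. H2-M3, a heavy chain outside the 10, is shown because its arrangement is the same. The coordinates are chr2:122147548-122147638 (plus strand) for B2m, chr17:34000359-34000457 (minus strand) for H2-K1, chr17:35262993-35263022 (plus strand) for H2-D1 and chr17:37270188-37270217 (plus strand) for H2-M3.
B2m: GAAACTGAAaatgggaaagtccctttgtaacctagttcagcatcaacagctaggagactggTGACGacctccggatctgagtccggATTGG
H2-K1: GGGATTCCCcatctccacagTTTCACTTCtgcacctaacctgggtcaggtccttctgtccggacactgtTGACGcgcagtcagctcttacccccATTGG
H2-D1: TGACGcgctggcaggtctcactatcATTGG
H2-M3: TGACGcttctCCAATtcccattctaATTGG

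In all 4 of these sequences TGACG is followed by ATTGG after 20 bases. The pair at that spacing was searched as a further pattern, which like the motifs was chosen after the members were known. It occurred in a window of 26 of 27025 genes, or 0.0962%, and 3 of the 8 members with a window were among them. These shares describe the pattern and are not a test. GGGATTCCC occurred in a window of 0.352% of the genes, H2-K1 and H2-D1 among them. The shorter motifs were common everywhere. ATTGG alone was in a window of 37.5% of all genes and in 7 of the 8 members, all but Psmb8, and TGACG was in 19.8% and in H2-K1, H2-D1, B2m, Tap1 and Psmb9. GAAANNGAA was in 8.18% of genes, with H2-T23 and B2m among them, and GAANNGAAA in 7.30%, with H2-K1 and H2-D1. These matches describe letters in a window and do not show that a factor was bound in these macrophages.

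B2m and H2-D1 were the most abundant members. Per kilobase of exon, B2m stood at 5966 and 5536 CPM in WT and 2929 and 3867 in KO, and H2-D1 at 2608 and 2596 against 1556 and 2050. H2-K1 followed with 372 and 552 against 250 and 362 CPM per kilobase, and H2-T23 with 336 and 258 against 186 and 201. H2-K1 was above H2-T23 in every library, although the lowest H2-K1 library lay below the highest H2-T23 library. Next came Tapbp, from 35.6 to 82.8, and Psmb8, from 23.1 to 52.0, which overlapped. Below them, Psmb9 (4.35 to 11.3) overlapped with both Tap2 (7.76 to 16.5) and Tap1 (3.19 to 6.85). Nlrc5, at 0.929 to 2.16 CPM per kilobase, was the lowest of the 10 and overlapped with none. The levels spanned the machinery from an abundant product at the cell surface to a scarce regulator.

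**Figure D1:**
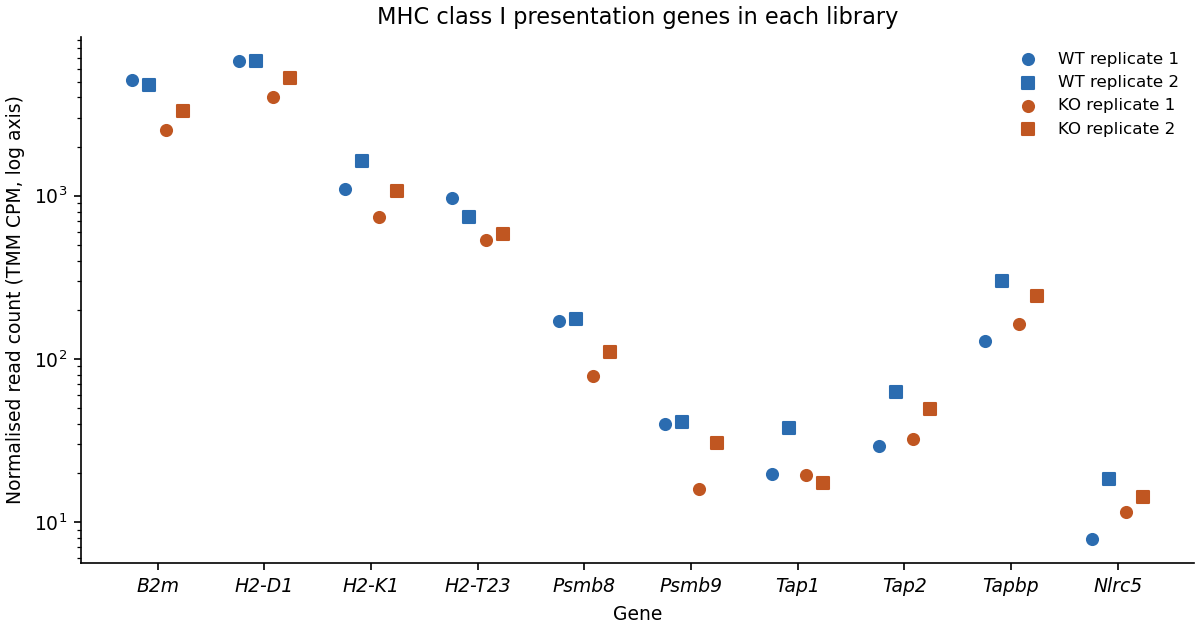
Level of the 10 members in each library, in CPM on a log axis, with 2 WT and 2 KO libraries per gene. B2m stood at 5131 and 4761 CPM in WT and 2519 and 3325 in KO, while the WT libraries of Tapbp (129 and 300 CPM) lay on both sides of the KO libraries.

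The comparison of KO with WT asked whether the libraries labelled KO hold a different level of these transcripts. No member passed the threshold of an adjusted p under 0.05 and a change over 2-fold, and neither did any of the 12418 genes tested (edgeR quasi-likelihood test, 0% called), although 823 had an unadjusted p under 0.05. The lowest adjusted p of all genes was 0.0863. Other tests called more genes but 0 members. The DESeq2 Wald test called 0.362% of all genes lower and 1.10% higher, the edgeR exact test 0.290% and 1.55%, and limma on FPKM at most 2 genes. With the replicate number as a block in the edgeR model, 1.37% were called lower and 3.98% higher, again with 0 members. All 10 fitted log2 fold changes lay below 0, with a median of -0.60, where the median of all genes tested was 0.041. At an unadjusted p under 0.05, 4 members were lower in KO (B2m, H2-D1, H2-T23 and Psmb8) and 0 higher, against 1.99% and 4.64% of all genes. In 7 members both KO libraries lay below both WT libraries, an order found in 16.9% of the genes tested, while 2480 of the 12418 genes had both KO libraries above both WT libraries. The other 3, Tap2, Tapbp and Nlrc5, overlapped. With 2 libraries against 2, an exact permutation test of a single gene cannot go below p = 0.333. The 10 members together took 1.37% and 1.36% of all counts in the WT libraries and 0.906% and 1.07% in the KO libraries. In bulk RNA, fewer cells of a kind and less RNA per cell cannot be told apart.

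Without the library KO replicate 1 the median of the members was -0.38 and 0 members stayed under an unadjusted p of 0.05, where 0.725% of all genes were lower at that level. Without KO replicate 2 the median was -0.71.

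**Figure D2:**
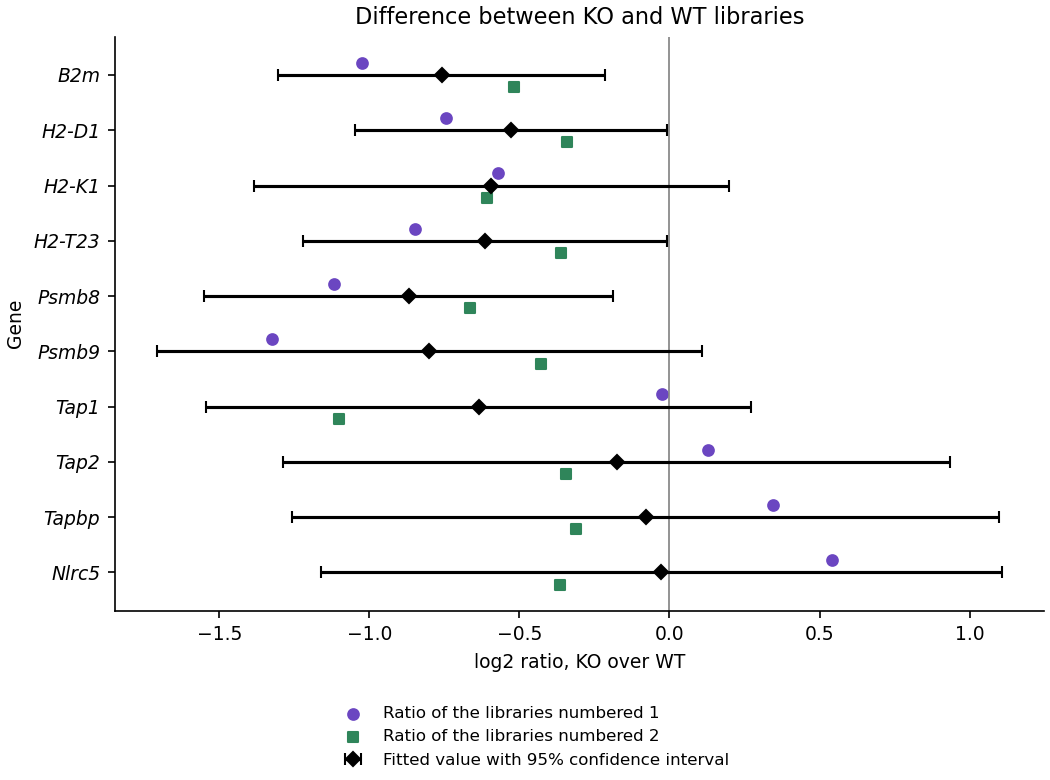
Log2 ratio of KO over WT for the 10 members, with the fitted value and its 95% confidence interval as a diamond and bar, and the ratio between libraries of the same number as a circle (number 1) and a square (number 2). The intervals of B2m, H2-D1, H2-T23 and Psmb8 lie below 0, and those of Tap2, Tapbp and Nlrc5 reach from below -1 to about 1.

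B2m (ENSMUSG00000060802, chr2:122147686-122153083) binds every class I heavy chain and is needed for its surface display. It had 5131 and 4761 CPM in the WT libraries and 2519 and 3325 in the KO libraries. Both KO libraries were lower, and the KO mean of 2922 ± 570 CPM (SD, n = 2) was 59.1% of the WT mean of 4946 ± 262 CPM (SD, n = 2). The log2 fold change was -0.76 with an SE of 0.21 and a 95% confidence interval from -1.30 to -0.21 (edgeR quasi-likelihood test, adjusted p = 0.470). B2m is the shortest member, with 860 exonic bases. The 500 tested genes closest to it in length had a median log2 fold change of -0.48, and after removal of the trend of each library with gene length B2m stood at -0.34.

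H2-D1 (ENSMUSG00000073411, chr17:35262730-35267499), a classical heavy chain, had 6726 and 6695 CPM in WT and 4014 and 5288 in KO. The WT libraries were nearly equal and both KO libraries were lower, at 69.3% of the WT mean. Its log2 fold change was -0.53 with an SE of 0.20 (interval -1.05 to -0.0097, edgeR quasi-likelihood test, adjusted p = 0.737). The value became -0.34 with KO replicate 1 left out and -0.75 with KO replicate 2 left out. H2-K1 (ENSMUSG00000061232, chr17:33996017-34000333), the other classical heavy chain, had 1093 and 1623 CPM in WT and 736 and 1065 in KO. Both KO libraries lay below the lowest WT library, but by less than the gap between the WT libraries, and this order was lost on library totals alone and on deposited FPKM. The log2 fold change of -0.59 had an SE of 0.31 (interval -1.38 to 0.20, edgeR quasi-likelihood test, adjusted p = 0.853). Leaving out WT replicate 2 changed it to -0.31, KO replicate 1 to -0.35 and KO replicate 2 to -0.89. H2-T23 (ENSMUSG00000067212, chr17:36029773-36032855) encodes Qa-1, a non-classical molecule that presents leader peptides of other class I chains to inhibitory receptors of NK cells. It had 970 and 746 CPM in WT and 539 and 581 in KO, a log2 fold change of -0.62 with an SE of 0.24 (interval -1.22 to -0.0083, edgeR quasi-likelihood test, adjusted p = 0.739). Its KO libraries were close to each other and below both WT libraries.

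The heavy chains and B2m did not keep quite the same proportion. The summed level of H2-K1, H2-D1 and H2-T23 per unit of B2m, per length, was 0.556 and 0.615 in WT and 0.681 and 0.676 in KO, so both KO libraries were above both WT libraries. After removal of the trend with gene length, B2m had a log2 fold change of -0.34, against -0.60 for H2-K1, -0.49 for H2-D1 and -0.62 for H2-T23, so the heavy chains were then the lower ones. The ratio of H2-D1 to H2-K1 was 7.01 and 4.70 in WT and 6.21 and 5.66 in KO, and these overlapped. Class I heavy chains resemble each other, and how the authors' counting treated reads that match several genes is not stated. Of the stretches of 100 bases in the annotated transcripts, 0.957% in H2-K1, 3.59% in H2-D1 and 3.15% in H2-T23 also occur in a transcript of another gene, and 0% in B2m. Reads from these stretches could have been split between genes.

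Psmb8 and Psmb9, the inducible proteasome subunits, had the most negative fold changes of the 10 in the fit to all 4 libraries. Tap1 was the lowest without WT replicate 1 (-1.03) and without KO replicate 1 (-0.71). Psmb8 (ENSMUSG00000024338, chr17:34197721-34201454) had 170 and 176 CPM in WT and 78.2 and 111 in KO. The WT libraries differed little and both KO libraries were lower, at 54.7% of the WT mean. The log2 fold change was -0.87 with an SE of 0.27 (interval -1.55 to -0.19, edgeR quasi-likelihood test, adjusted p = 0.544). Psmb9 (ENSMUSG00000096727, chr17:34181988-34187764) had 39.9 and 41.2 CPM in WT and 15.9 and 30.6 in KO. Here the KO libraries were both lower but far apart, and the log2 fold change of -0.80 had an SE of 0.36 (interval -1.71 to 0.11, edgeR quasi-likelihood test, adjusted p = 0.824). Without KO replicate 1 it was -0.40 and without KO replicate 2 it was -1.35.

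A ratio of an inducible subunit to the constitutive subunit it replaces does not depend on how libraries are scaled. Psmb8 over Psmb5, per length, was 0.262 and 0.299 in WT and 0.185 in both KO libraries. The difference between the group means of the log2 ratio was -0.60, and the SD between libraries of a group, pooled over both groups, was 0.096. The ratio of Psmb9 over Psmb6 was 0.0465 and 0.0378 in WT and 0.0332 and 0.0323 in KO, a log2 difference of -0.36 with a pooled SD of 0.152. Leaving out WT replicate 1 changed the difference to -0.21, and leaving out WT replicate 2 to -0.51. In both ratios the KO libraries were below the WT libraries. Psmb10, the remaining inducible subunit, gave 1.32 and 2.65 over Psmb7 in WT and 1.14 and 2.14 in KO. That ratio followed the replicate number rather than the genotype, with a log2 difference of -0.26 and a pooled SD of 0.679. Its sign turned without WT replicate 2 (0.25) and without KO replicate 1 (0.19). The constitutive subunits had log2 fold changes of -0.28 (Psmb5), -0.45 (Psmb6) and -0.38 (Psmb7), with adjusted p-values of 0.957, 0.949 and 0.928 (edgeR quasi-likelihood test). Psmb10 had 120 and 208 CPM in WT and 61.9 and 163 in KO, a log2 fold change of -0.55 with an SE of 0.54 (edgeR quasi-likelihood test, adjusted p = 0.957).

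**Figure D3:**
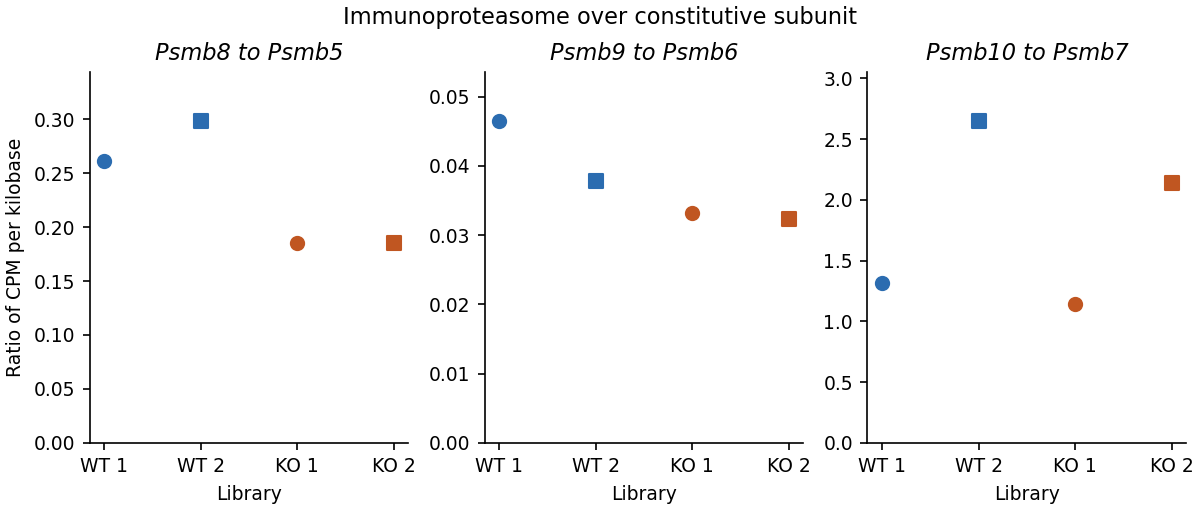
Ratio of each inducible proteasome subunit to the constitutive subunit it replaces, per length, on a linear axis with 1 point per library. Psmb8 over Psmb5 was 0.262 and 0.299 in WT and 0.185 in both KO libraries, whereas Psmb10 over Psmb7 was higher in the libraries numbered 2 of both groups.

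Tap1 and Tap2 form the peptide transporter. Tap1 (ENSMUSG00000037321, chr17:34187553-34197225) had 19.7 and 37.5 CPM in WT and 19.3 and 17.5 in KO. The WT libraries were far apart and the lower of them was almost level with KO replicate 1, and the groups overlapped on library totals alone and on deposited FPKM. The log2 fold change was -0.64 with an SE of 0.36 (interval -1.54 to 0.27, edgeR quasi-likelihood test, adjusted p = 0.878). Leaving out WT replicate 1 gave -1.03, and leaving out WT replicate 2 gave -0.13. Tap1 and Psmb9 start next to each other on opposite strands and share 212 exonic bases. Whether the counting used strand is not stated, so reads from that stretch cannot be assigned to either gene. Tap2 (ENSMUSG00000024339, chr17:34203527-34216321) had 29.3 and 62.4 CPM in WT and 32.1 and 49.1 in KO. The KO libraries lay between the WT libraries, and the log2 fold change of -0.18 had an SE of 0.44 (interval -1.29 to 0.94, edgeR quasi-likelihood test, adjusted p = 0.982).

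Tapbp (ENSMUSG00000024308, chr17:33915899-33929288), the chaperone that bridges TAP and the heavy chain, had 129 and 300 CPM in WT and 164 and 242 in KO. Its log2 fold change was -0.08 with an interval from -1.26 to 1.10 (edgeR quasi-likelihood test, adjusted p = 0.990). Nlrc5 (ENSMUSG00000074151, chr8:94472763-94527272) had 7.89 and 18.3 CPM in WT and 11.5 and 14.2 in KO, from 128 to 292 counts per library. Its log2 fold change was -0.03 with an interval from -1.16 to 1.11 (edgeR quasi-likelihood test, adjusted p = 0.995). Tap2, Tapbp and Nlrc5 shared a pattern in which WT replicate 1 was the lowest library and WT replicate 2 the highest. The sign of all 3 turned when WT replicate 2 was left out (0.43, 0.62 and 0.67) and when KO replicate 1 was left out (0.10, 0.18 and 0.12). A change of 2-fold in either direction lies within the interval of Tapbp and Nlrc5, so these libraries show neither a difference in the transactivator nor its absence.

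The members differed in how far the libraries of 1 group lay apart. On the log2 scale, WT replicate 2 over WT replicate 1 was 1.22 for Nlrc5, 1.22 for Tapbp, 1.09 for Tap2, 0.93 for Tap1 and 0.57 for H2-K1. The same ratio was -0.38 for H2-T23, -0.11 for B2m, -0.01 for H2-D1 and 0.05 for both Psmb8 and Psmb9. The median size of that ratio over all genes tested was 0.369, so H2-T23 was close to a typical gene and B2m, H2-D1, Psmb8 and Psmb9 were below it. In KO the ratio was 0.94 for Psmb9, 0.61 for Tap2, 0.56 for Tapbp, 0.53 for H2-K1, 0.50 for Psmb8, 0.40 for B2m, 0.40 for H2-D1, 0.31 for Nlrc5, 0.11 for H2-T23 and -0.14 for Tap1, with a median size of 0.289 over all genes. The KO libraries of Psmb9, Psmb8, B2m and H2-D1 were therefore farther apart than their WT libraries. Over the 4 libraries Pearson's r was 0.994 between H2-D1 and Psmb8, 0.988 between H2-D1 and B2m, 0.987 between Tapbp and Tap2 and 0.981 between Tapbp and Nlrc5, but 0.023 between H2-D1 and Nlrc5. H2-K1 lay between, at 0.859 with H2-D1 and 0.748 with Tap2. These values describe 4 points that share their scaling and depth.

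**Figure D4:**
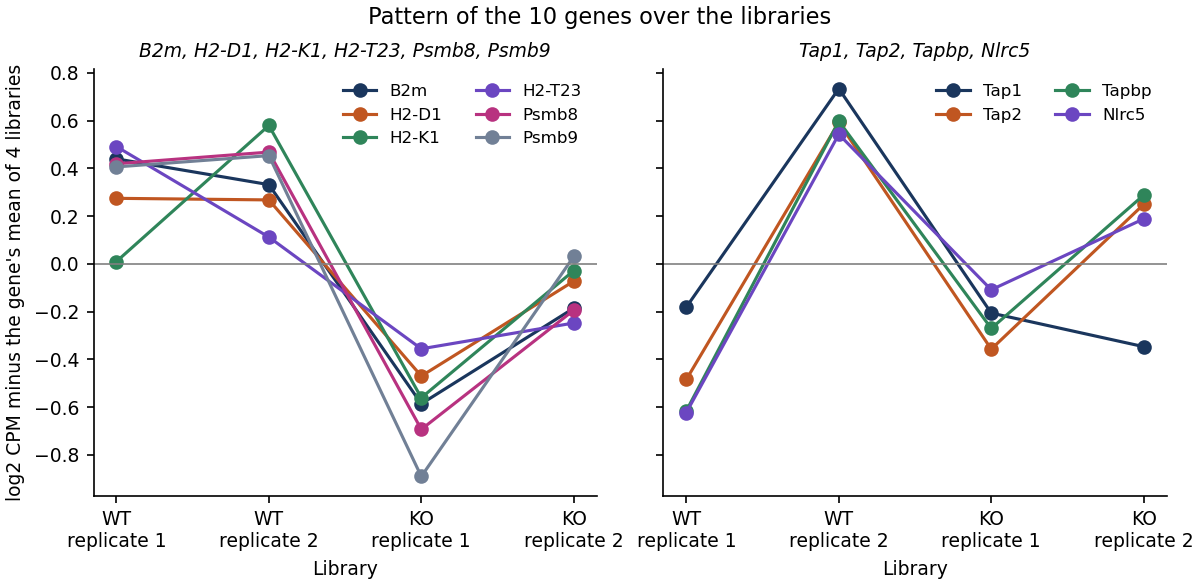
Deviation of the log2 CPM of each member from its own mean over the 4 libraries, with 6 members in the left panel and 4 in the right. H2-D1, B2m and Psmb8 were high in both WT libraries and low in both KO libraries, while Tap2, Tapbp and Nlrc5 were lowest in WT replicate 1 and highest in WT replicate 2.

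Outside the class I lists, the gene whose levels came closest to the mean pattern of the 10 members was Caprin1, an RNA-binding protein, among 8016 genes with a mean of at least 10 CPM. Its root mean square distance was 0.0371 on the log2 scale over the 4 libraries, with 259 and 373 CPM in WT and 202 and 259 in KO. Irgm1, an interferon-inducible GTPase, came next at a distance of 0.044, with 76.7 and 115 CPM in WT and 58.5 and 76.9 in KO. They were followed by 1110038F14Rik, Gm13139 and Zfp429 at up to 0.060. The single closest genes were Anapc10 for B2m, Atp6v0b for H2-D1, Plaur for H2-K1, Caap1 for H2-T23, Cnbp for Psmb8, Timm10 for Psmb9, Trim30a for Tap1, Ptafr for Tap2, Rasa2 for Tapbp and Gtf3c5 for Nlrc5, at distances from 0.00904 to 0.0937. With 4 libraries and this many genes, close matches are frequent.

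The rest of the pathway was read from a list of 79 further genes, of which 73 had enough reads for testing. None passed the threshold by the edgeR quasi-likelihood test, where 0% of all genes did, nor by the edgeR exact test, DESeq2 or limma. With the replicate number as a block in the model 6 were called, H2-M3 and Cd1d2 among them, against 1.37% of all genes called lower. Both lost that call when a gene length correction was added to the block. Without the block, 3 were lower and 0 higher at an unadjusted p under 0.05, against 1.99% and 4.64% of all genes, and the median log2 fold change was -0.09. Of the 73 genes 44 lay below 0 and 29 above, and of all genes tested 45.4% lay below 0.

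The further heavy chains and related molecules came closest to the members. Of 19 listed, 14 were tested, 13 had a log2 fold change below 0 and the median was -0.61. H2-M3, which presents formylated peptides, had 75.0 and 80.1 CPM in WT and 29.7 and 44.5 in KO. Both KO libraries were lower and the log2 fold change was -1.06 with an SE of 0.28 (edgeR quasi-likelihood test, adjusted p = 0.433). H2-T22, a ligand of some gamma delta T cells, had 178 and 172 CPM in WT and 109 and 119 in KO, a log2 fold change of -0.61 (edgeR quasi-likelihood test, adjusted p = 0.680). Cd1d2, a lipid-presenting molecule, was scarce: its WT libraries held 25 and 28 counts and its KO libraries 8 and 10, a log2 fold change of -1.80 (edgeR quasi-likelihood test, adjusted p = 0.378). H2-T24, at 0.31, was the one tested gene of the group above 0.

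Genes of peptide loading in the endoplasmic reticulum lay mostly on the other side of 0. Of the 9 peptide loading and trimming genes, 7 had a log2 fold change above 0, with a median of 0.16. The most different were the glycoprotein folding sensor Uggt1 (0.43), calnexin, encoded by Canx (0.34), and the aminopeptidase Lnpep (0.31), none with an unadjusted p under 0.05. The lower ones were Tapbpl, a peptide editor related to tapasin, at -0.23 and the chaperone Hspa5 at -0.16. Canx had 352 and 405 CPM in WT and 469 and 488 in KO, so its groups did not overlap (edgeR quasi-likelihood test, adjusted p = 0.908). Cytosolic peptidases, which destroy or trim peptides, were 6 of 6 above 0 with a median of 0.12, led by Thop1 (0.55, edgeR quasi-likelihood test, adjusted p = 0.846), Npepps (0.29) and Nrdc (0.16). Fold changes also differed with gene length. The 500 tested genes closest in length to Nlrc5, the longest member, had a median of 0.19, against -0.48 for those closest to B2m. The part of gene length in the medians of these and the other groups was not tested.

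Of the 9 other proteasome genes 7 lay below 0, with a median of -0.45. Pomp, the chaperone that assembles new proteasomes, had 197 and 177 CPM in WT and 110 and 137 in KO, a log2 fold change of -0.59 (edgeR quasi-likelihood test, adjusted p = 0.777). Psme1, a subunit of the PA28 activator, had 90.4 and 108 CPM in WT and 50.1 and 73.8 in KO, at -0.68 (edgeR quasi-likelihood test, adjusted p = 0.795). Both KO libraries were below both WT libraries in each of them. Psme4, at 0.37, and Psme3, at 0.03, lay above 0.

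Regulators and interferon gamma signalling genes were spread around 0, with 17 of 25 below, 8 above and a median of -0.10. Irf9, a transcription factor of interferon signalling, was at -0.45, Rfxap, a subunit of the RFX complex, at -0.47, and Socs1, an inhibitor of JAK signalling with few counts, at -0.97 (edgeR quasi-likelihood test, adjusted p = 0.853, 0.871 and 0.941). Irf8 (0.28), Jak1 (0.18) and Rfx5 (0.14) were above 0. Irf1 had 23.4 and 223 CPM in WT and 20.2 and 126 in KO. It was far higher in the libraries numbered 2 of both groups, by 3.26 and 2.64 on the log2 scale, and its log2 fold change of -0.76 had an SE of 1.22.

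Cross-presentation genes, which route engulfed antigen to class I, were evenly divided, with 5 of 10 tested below 0 and a median of 0.06. The translocon subunit Sec61b (-0.63), the thiol reductase Ifi30 (-0.38) and Sec22b (-0.20) were the lower genes with the smallest p, and Vcp (0.35), Wdfy4 (0.42) and Sec61a1 (0.24) the higher ones. Their adjusted p-values ran from 0.848 to 0.964 (edgeR quasi-likelihood test).

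**Figure D5:**
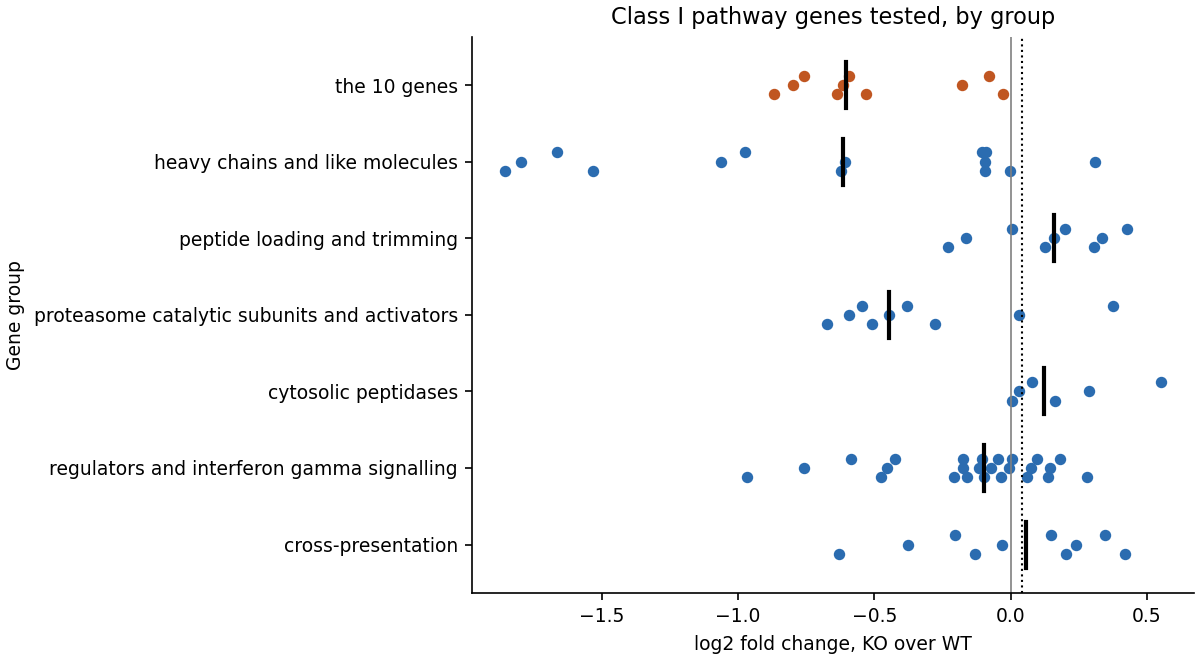
Log2 fold change of KO over WT for the tested genes of each further class I group and for the 10 members, with 1 point per gene, the group median as a bar and the median of all genes tested (0.041) as a dotted line. The medians were -0.60 for the members, -0.61 for the further heavy chains, -0.45 for the proteasome genes and 0.16 for peptide loading and trimming.

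Markers of other cell types also differed between the libraries. The 8 stromal markers, all tested, summed to 73.8 and 87.8 CPM in WT and 320 and 295 in KO, and none was at 0. The 8 neutrophil markers, 2 of them tested, summed to 22.1 and 21.2 CPM in WT and 7.73 and 11.3 in KO, with Elane and Mpo at 0 in every library. The 8 B cell markers, 5 of them tested, gave 43.8 and 47.4 CPM in WT and 23.8 and 27.4 in KO. The 6 erythroid markers, 2 of them tested, gave 10.7 and 7.66 CPM in WT and 1.88 and 2.49 in KO. The 8 dendritic cell markers (6.23 to 8.97 CPM) overlapped between the groups, and so did the 8 T and NK cell markers (1.07 to 2.16 CPM), none of them tested. The stromal, neutrophil, B cell and erythroid sums differed by genotype in the same libraries as the class I genes, and their part in the member values was not tested.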

How the data were processed

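Total RNA of 4 macrophage libraries was sequenced on an Illumina NovaSeq. Per the labels and the study's methods, the authors filtered reads with Seqtk, aligned them with HISAT2 2.0.4 and obtained with StringTie 1.3.3b the deposited fragment counts and FPKM (fragments scaled to gene length and library size). The submitters' processing notes name the build mm39, but the deposited positions are those of GRCm38: 34344 of 34745 gene IDs are in GENCODE M21, 27763 with the same start and end. Coordinates are given as deposited.

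Raw counts were tested with edgeR 4.0.16 in R 4.3.3 (quasi-likelihood F test, TMM scaling, filterByExpr, genotype as the only term, two-sided). P-values were adjusted by Benjamini-Hochberg over 12418 genes, and genes with an adjusted p under 0.05 and a change over 2-fold were called. CPM use TMM-scaled totals. Levels between genes use exonic bases of M21, because the lengths implied by the deposited FPKM exceed the whole gene for 5 members. All annotated exons of a gene were merged, and for Psmb8 they fill 3381 bases of a gene of 3734. Levels per kilobase, the order of the genes and the size of the subunit ratios depend on these lengths. Differences between KO and WT within a gene or ratio do not. The fit was tested on simulated data with less spread between libraries than found here. DESeq2 1.42.0, limma 3.58.1 on log2(FPKM + 1) and log2(FPKM + 0.1), other filters and scalings, a gene length correction, a replicate block and leaving out each library were alternatives.

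The members and lists were chosen with earlier results of these data known. Named were the members, up to 3 genes per list and direction with the smallest p, 7 genes always (Psmb5, Psmb6, Psmb7, Psmb10, Irf1, Rfx5 and 1 that is not reported here), and the closest patterns. 1 listed symbol, Nrdc, was matched through a RefSeq synonym.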

Additional observations from a re-analysis of the deposited data

How the results depend on the processing

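Members called were 0 under every alternative run, and their median log2 fold change stayed below 0 throughout, from -0.71 to -0.38. Members with both KO libraries below both WT libraries numbered 5 on library totals alone or on deposited FPKM (H2-K1 and Tap1 were lost), against 9.39% and 9.40% of all genes. With a library left out, 1 library is set against 2, and the members numbered 7 to 10 against 29.4% to 35.0% of all genes. Over all genes, 0 were called by the quasi-likelihood test (823 at an unadjusted p under 0.05), 0 to 1 when a library was left out, 181 by the DESeq2 Wald test, 229 by the edgeR exact test, 214 by that test without a filter (added after seeing the data) and 2 by limma on log2(FPKM + 0.1). Members lower at an unadjusted p under 0.05, a count added after seeing the data, were 4 by the quasi-likelihood test (1.99% of all genes), 1 by the exact test with or without a filter (1.55% and 1.35%), 2 by limma with either pseudocount (1.55%) and 0 to 4 when a library was left out (0.725% to 5.95%), with 0 without KO replicate 1. The sign turned for Tap2 by limma (0.031 and 0.043 with pseudocounts of 1 and 0.1), for Tapbp (0.16 and 0.17) and for Nlrc5 (0.090 and 0.21). Leaving out libraries gave Tap2 -0.62 to 0.43, Tapbp -0.56 to 0.62 and Nlrc5 -0.51 to 0.67. The cause was not tested.

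With a replicate block, 664 genes were called (494 higher, 170 lower), and 305 with the block and a gene length correction. Same-numbered libraries deviated together (r = 0.727 over genes), but the labels do not say what a number shares, and with 2 pairs the numbers were not taken to pair the libraries. Under the block, 7 members were lower at an unadjusted p under 0.05, against 9.37% of all genes, and adjusted p-values of edgeR's test were 0.0193 for B2m, 0.00271 for Psmb8 and 0.00685 for Psmb9, each with a change under 2-fold. Of all genes, 3.14% were lower at that adjusted level. With the length correction added to the block, the adjusted p-values of edgeR's test were 0.0249 for Psmb8, 0.0866 for Psmb9 and 0.304 for B2m. Under the block alone, the log2 fold change was 0.017 for Tapbp and 0.069 for Nlrc5 (adjusted p = 0.981 and 0.926 by the same test). Of the further list, 6 genes were called under the block, all lower (Cd1d2, H2-M2, H2-M3, H2-Q4, H2-Q6 and H2-Q7, named for this call), against 1.37% of all genes, and 4 with the length correction (all but Cd1d2 and H2-M3), against 0.684%.

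All members had at least 128 counts in every library.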
